A study of Mus musculus with 2 samples.

Results

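Scavenger and phagocytic receptor genes were described across the immune cell classes of mouse lung. The list named 10 genes, chosen for function with earlier results of these data known. Rows were matched by gene symbol in the matrices, which held 32285 genes. Of the 10 genes, 9 were measured here (Msr1, Marco, Mrc1, Cd163, Trem2, Mertk, Axl, Folr2 and Cd209a), and Clec7a was not analysed here. The study made single-cell libraries with 10x 3′ chemistry from digests of whole lung; the mice were C57BL/6 and bore a mutant of surfactant protein C (SP-C, I73T), a protein secreted by alveolar type 2 cells. Of the 2 libraries, the submitters titled 1 injured and 1 control. The series design gives steady state and 14 days after injury, and the protocol describes 1 oral dose of tamoxifen, 175 mg per kg in corn oil, meant to excise a neomycin cassette and so increase the mutant SP-C. Titles and treatment tags disagree (the injured library is tagged untreated, the control library tamoxifen treated), and the groups below follow the titles. Both libraries came from mutant mice, lungs were lavaged before digestion, and the number and age of the animals in each library were not given in the sources used here.

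Scavenger receptors are surface proteins through which macrophages take up modified lipoproteins, particles, microbes and dying cells. The class A receptors encoded by Msr1 and Marco bind a wide range of charged ligands, while the mannose receptor gene Mrc1 and the DC-SIGN homologue Cd209a encode lectins. Trem2 encodes a lipid-sensing receptor that signals through the adaptor Tyrobp. Mertk and Axl encode receptor tyrosine kinases that bind dying cells through bridging proteins such as Gas6. Cd163 encodes the haemoglobin-haptoglobin receptor and Folr2 a folate receptor, both used as marks of tissue-resident macrophages outside the alveoli. Marco and Mrc1 are long-standing markers of alveolar macrophages.

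The libraries held 2302 cells (injured) and 2298 cells (control) after filtering, with 19853343 and 16021066 UMIs (unique molecular identifiers, each counting 1 captured mRNA). With 1 library in each group no test between injured and control could be made, and injury, library and batch cannot be told apart. Levels are counts scaled to 1000000 UMIs of a class (CPM). Their 95% intervals, exact Poisson for levels and exact conditional for ratios, cover counting error only. Calls of higher or lower needed a ratio of 1.5-fold or more and at least 10 counts over both sides. Classes were named from marker lists that held none of the receptor genes, and neither the receptor genes nor the compared gene lists entered the clustering. One barcode of 5376 was shared between the libraries (1 after filtering). Of the lung epithelial markers, Scgb1a1 had 13271 CPM (injured) and 34886 CPM (control), and Sftpc 371 and 138 CPM.

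The windows of 250 bases before the RefSeq start of 4 receptor genes (GRCm38.p6) are printed because these genes moved in opposite directions in alveolar macrophage-like cells, Marco and Trem2 being higher and Mertk and Axl lower in the injured library. Each runs 5′ to 3′ on the gene's strand. Capitals mark the core of the PU.1 motif, GAGGAA, which reads as TTCCTC from the other strand, and in Trem2 also the AP-1 motif TGANTCA. The windows are chr1:120505025-120505274 (minus) for Marco, chr17:48346151-48346400 (plus) for Trem2, chr2:128698665-128698914 (plus) for Mertk and chr7:25788734-25788983 (minus) for Axl.
Marco: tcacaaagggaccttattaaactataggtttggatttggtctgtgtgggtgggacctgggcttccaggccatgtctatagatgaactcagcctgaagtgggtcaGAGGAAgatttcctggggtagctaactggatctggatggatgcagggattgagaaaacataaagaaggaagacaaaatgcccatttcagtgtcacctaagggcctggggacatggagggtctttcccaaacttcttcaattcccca
Trem2: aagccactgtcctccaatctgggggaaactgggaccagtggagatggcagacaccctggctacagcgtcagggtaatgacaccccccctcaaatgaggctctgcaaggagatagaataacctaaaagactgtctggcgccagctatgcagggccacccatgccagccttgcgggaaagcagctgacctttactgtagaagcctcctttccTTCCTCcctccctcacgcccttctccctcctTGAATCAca
Mertk: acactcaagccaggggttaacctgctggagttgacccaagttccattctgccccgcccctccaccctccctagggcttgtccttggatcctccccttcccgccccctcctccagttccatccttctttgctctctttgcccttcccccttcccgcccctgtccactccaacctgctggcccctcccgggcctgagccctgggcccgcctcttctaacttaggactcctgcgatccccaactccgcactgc
Axl: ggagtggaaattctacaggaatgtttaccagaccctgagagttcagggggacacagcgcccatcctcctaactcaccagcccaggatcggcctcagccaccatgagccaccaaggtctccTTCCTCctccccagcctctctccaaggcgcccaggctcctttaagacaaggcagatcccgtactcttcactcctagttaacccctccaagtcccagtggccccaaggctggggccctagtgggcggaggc
The PU.1 core was found on either strand in 23.3% of 32851 such windows. Msr1 had no window here. Of the 9 listed genes with a window (11 windows, Clec7a included), 5 held the PU.1 core: Marco, Mrc1, Clec7a, Axl and Trem2. This count is by gene, while the 23.3% is by window. The AP-1 motif, which reads the same on both strands, was in 6.75% of all windows and in those of Trem2 and Folr2. The E-box CACGTG of MITF and TFE factors was in 6.02% of all windows and in none of these genes. The core of the MAF recognition element, TGCTGA, which reads as TCAGCA from the other strand, was in 16.1% of all windows and in those of Folr2 and Cd209a. The marked matches of the 4 printed windows did not overlap each other. The PU.1 core stood before Marco and Trem2 and before Axl, and was not in the Mertk window.

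Most receptor counts came from macrophage classes. The alveolar macrophage-like class (289 injured and 309 control cells) gave 75.8% (injured) and 86.9% (control) of a library's Marco counts. It gave 65.7% and 89.7% of the Mrc1 counts, 62.2% and 87.8% of the Mertk counts and 59.2% and 86.2% of the Axl counts. A C1q macrophage-like class, named for genes of complement component C1q, held 366 injured and 3 control cells. It gave 58.5% of the injured library's Trem2 counts, 94.9% of its Folr2 counts and 93.1% of its Cd163 counts. Cd209a counts came mainly from the cDC2-like class (type 2 conventional dendritic cells), 88.6% of them in the injured library and 69.3% in the other. The control library differed for Trem2 and Cd163. Its Trem2 counts came from alveolar macrophage-like cells in 436 of 598 cases (72.9%) and from the 3 C1q macrophage-like cells in 3.18%. Of its 12 Cd163 counts, 5 came from classical monocyte-like cells, and all of its 4 Folr2 counts lay in the 3 C1q macrophage-like cells. So Marco, Mrc1, Mertk and Axl were mainly alveolar in both libraries, and Cd209a was mainly in dendritic cells in both. Folr2 counts lay mainly in C1q macrophage-like cells in both, with 4 counts in the control library. Trem2 and Cd163 counts lay mainly in that class in the injured library alone. Its 3 control cells held 0.25% of the control UMIs, so these shares follow cell number as well as level. Msr1 was near the same level in C1q macrophage-like, proliferating and alveolar macrophage-like cells of the injured library.

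**Figure D1:**
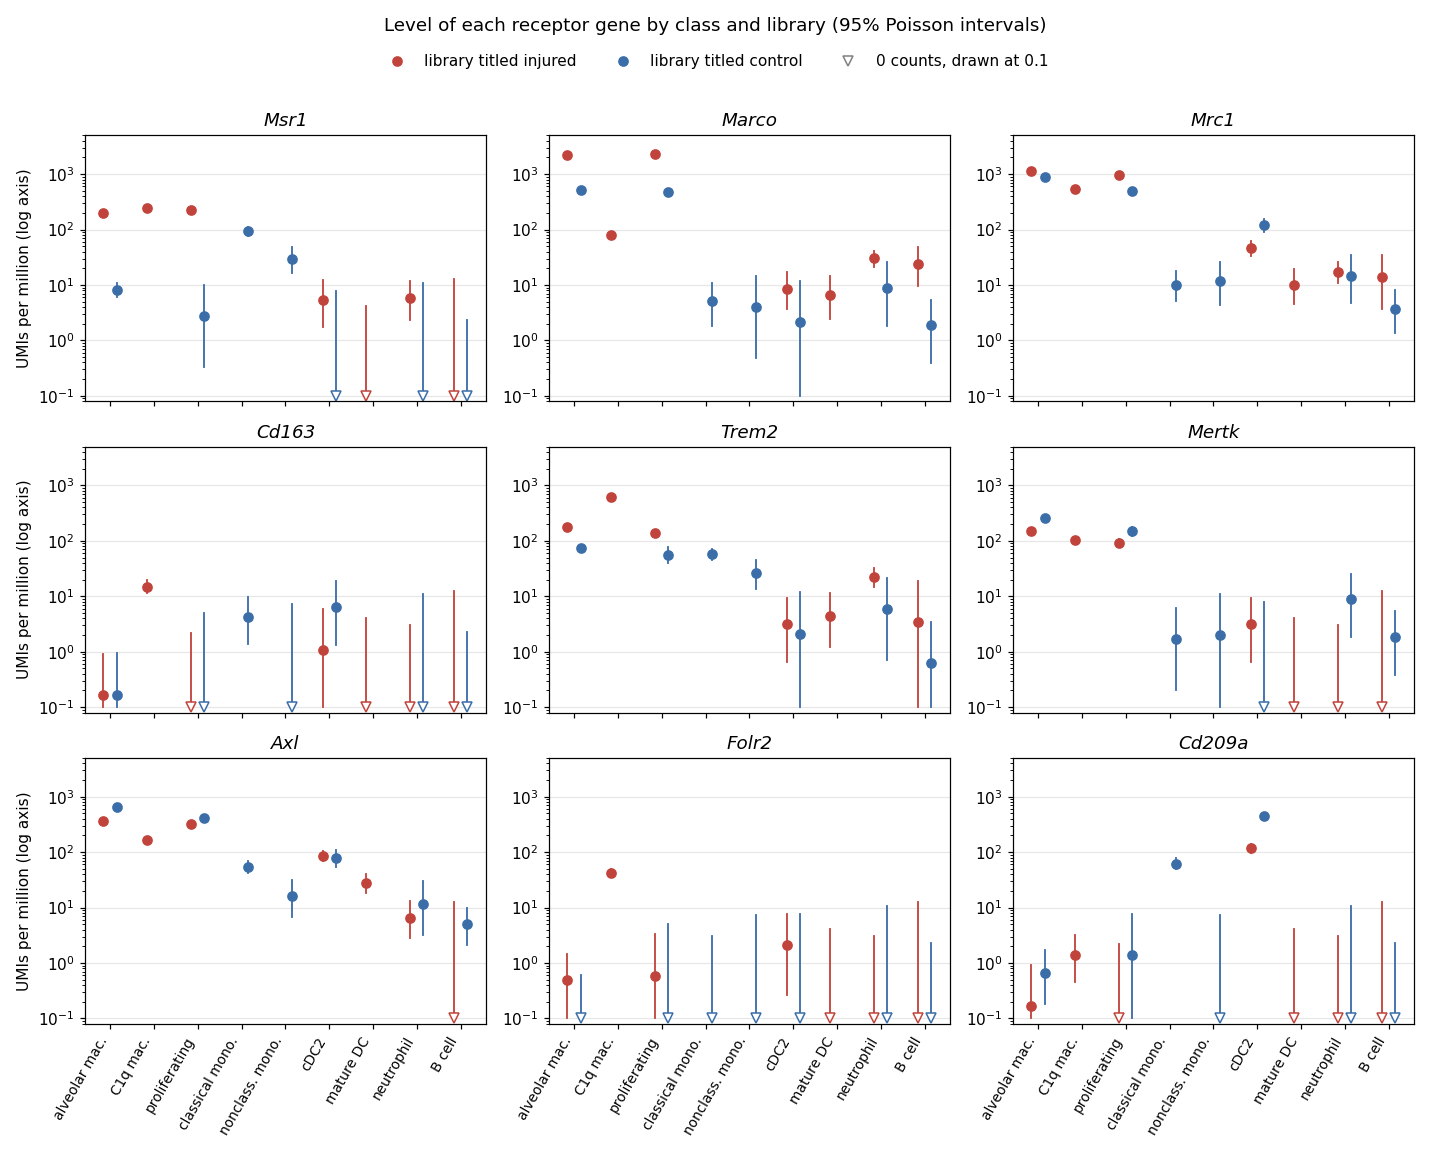
Level of each of the 9 receptor genes (y axis, CPM on a log axis) in 9 classes with at least 30 cells in a library (x axis); red points are the injured and blue points the control library, bars are 95% Poisson intervals and open triangles are classes with 0 counts. Marco, Mrc1, Mertk and Axl stand highest in alveolar macrophage-like and proliferating cells, Trem2 and Folr2 in C1q macrophage-like cells and Cd209a in cDC2-like cells.

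B and T cells, which should lack these genes, give the level of stray RNA. Msr1, Folr2 and Cd209a had 0 counts in the B cells of both libraries. Marco was detected in 11.9% of 59 injured B cells (7 counts; median depth 3388 UMIs) and in 0.946% of 317 control B cells, at 23.9 and 1.86 CPM. Levels of Marco of this size in other classes of the injured library are read here as background.

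Within alveolar macrophage-like cells, Msr1, Marco and Trem2 were higher in the injured library, Mertk and Axl were lower, and Mrc1 was past the call in neither direction. Of the 9 genes, 6 had at least 10 counts in this class, of which 3 were called higher and 2 lower, against 13.6% of 11428 genes called higher and 22.7% called lower. Cd163 (1 and 1 counts), Folr2 (3 and 0) and Cd209a (1 and 4) were at or near 0 in both libraries.

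Msr1 (ENSMUSG00000025044, GRCm38 chr8:39581685-39642673, minus strand) had 1202 counts in injured and 49 in control alveolar macrophage-like cells, or 198 and 8.22 CPM. It was detected in 85.5% and 10.7% of the cells at median depths of 19792 and 18519 UMIs. The ratio was 24.1 (interval 18.1 to 32.8). This was the widest difference among the 6 genes, and control cells had a median of 0 UMIs.

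Marco (ENSMUSG00000026390, chr1:120474538-120505024, minus strand), the receptor for inhaled particles and bacteria, stood at 2259.9 CPM against 507 CPM, from 13720 and 3022 counts. The ratio was 4.46 (4.29 to 4.64). Unlike Msr1, Marco was already found in most control cells, at 68.9% against 87.5% in the injured library. Mrc1 (ENSMUSG00000026712, chr2:14229392-14332057, plus strand) was at 1155 and 871 CPM, a ratio of 1.33 (1.28 to 1.38), and was detected in 99.3% and 99.7% of the cells. So the 2 classical alveolar macrophage receptors differed in how far they moved: the Marco ratio lay well beyond the interval of the Mrc1 ratio.

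Trem2 (ENSMUSG00000023992, chr17:48346401-48354147, plus strand) had levels of 181 and 73.1 CPM in injured and control cells, a ratio of 2.47 (2.21 to 2.76). It was detected in 80.6% and 58.3% of the cells. Its adaptor gene Tyrobp went the other way without passing the call, at 1901 and 2310 CPM (11539 and 13775 counts).

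Mertk (ENSMUSG00000014361, chr2:128698956-128802894, plus strand) had levels of 151 (injured) and 254 CPM (control), 1.68-fold lower (1.55 to 1.83). Axl (ENSMUSG00000002602, chr7:25757273-25788705, minus strand) was at 368 and 663 CPM, 1.80-fold lower (1.71 to 1.90). Both kinases were still found in most injured cells, Mertk in 81.3% and Axl in 95.2%. Msr1, Marco and Trem2 differed in the opposite direction in the same cells.

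Cells of different clusters stood for this class in the 2 libraries: cluster 5 held 288 injured and 0 control cells and cluster 4 held 1 and 309. A marker counted toward a name at 3-fold or more above all other cells and in at least 20% of the cluster. Cluster 5 met this for 4 of the 15 markers (Chil3, Car4, Ctsk and Lpl) and cluster 4 for 10. The 15 alveolar macrophage markers summed to 31573 CPM (injured) and 22673 CPM (control), with 3 of 14 higher and 7 lower, and Ear10 at 0 in both. Of these sums the marker Chil3 alone gave 21509 CPM (injured) and 10998 CPM (control), so the higher injured sum does not describe the markers as a set. The 12 C1q macrophage markers summed to 536 and 64.4 CPM, with 6 of 10 higher and 2 lower, Tmem119 being at 0 in the injured and C1qc at 0 in the control cells. Their part in the receptor differences was not tested. Cluster 8, left unnamed, had Ear1, Il18 and Krt79 among its leading genes and a median of 985.5 UMIs in its 119 injured and 141 control cells. Marco there was at 333 against 342 CPM (60 and 74 counts), and Mrc1 at 66.5 against 526 CPM (12 and 114 counts), so neither followed the named class. Msr1 had 10 against 0 counts, Trem2 27 against 8, Mertk 6 against 20 and Axl 25 against 110, each in the same direction as in the named class.

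**Figure D2:**
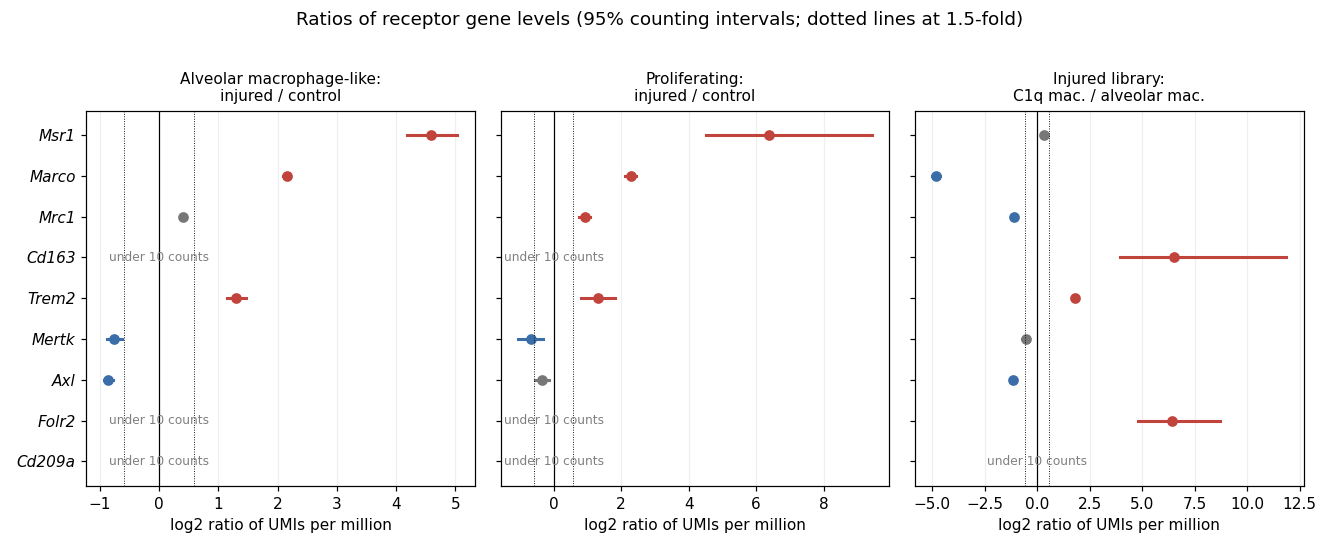
Log2 ratios (x axis) of receptor gene levels with 95% counting intervals for each gene (y axis), for injured over control in alveolar macrophage-like and in proliferating cells and for C1q over alveolar macrophage-like cells of the injured library; red is higher, blue lower and grey neither, and dotted lines mark 1.5-fold. Msr1, Marco and Trem2 lie to the right and Mertk and Axl to the left in both comparisons of injured with control, Axl being past the call in the first of these but not in the second.

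Single cells of one class varied widely for Marco and less for Mrc1. In injured alveolar macrophage-like cells the quartiles of Marco per cell were 249 and 3376 CPM around a median of 1428, and 36 of 289 cells had none. In control cells they were 0 and 646 around 205, with 96 of 309 cells at 0. Mrc1 ran from 771 to 1494 CPM between quartiles (median 1066) in injured cells and from 669.7 to 1079 (median 861) in control cells. Most Axl values of control cells lay above those of injured cells: the lower quartile of the control cells, 501 CPM, was above the upper quartile of the injured cells, 478 CPM. The Msr1 quartiles also did not overlap, at 78.3 to 262 CPM in injured and 0 to 0 in control cells. Cells are not replicates, so these spreads describe 1 library each.

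**Figure D3:**
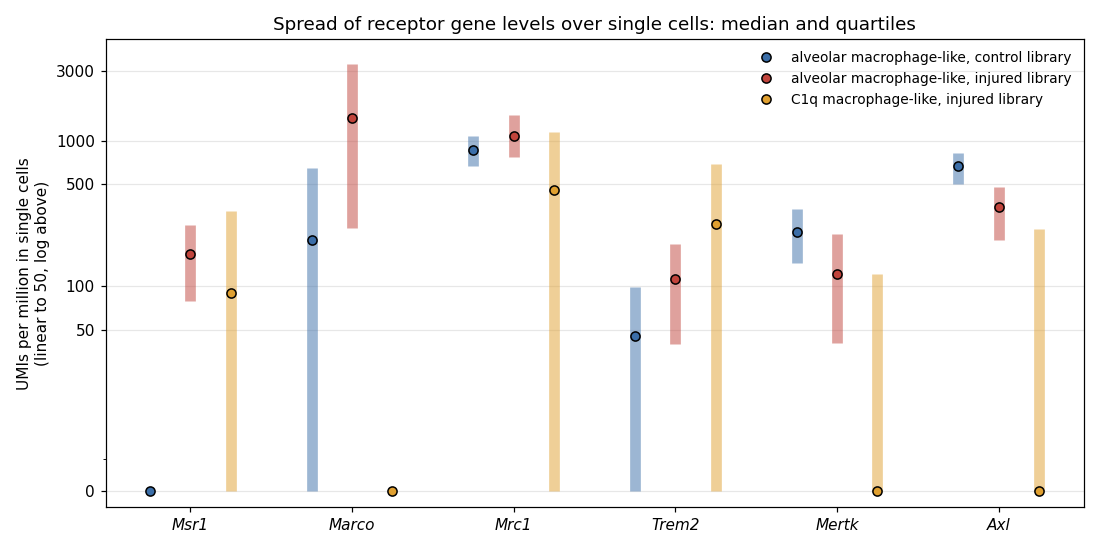
Median (point) and quartiles (bar) over single cells of the level of 6 receptor genes (y axis, CPM, linear up to 50 and logarithmic above) in alveolar macrophage-like cells of both libraries and C1q macrophage-like cells of the injured library. The quartiles of Msr1 and Axl do not overlap between injured and control alveolar macrophage-like cells, and those of Marco, Mrc1, Trem2 and Mertk do.

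More genes of the list were detected per injured than per control alveolar macrophage-like cell at a fixed depth, a count that follows from the levels given above. Each cell was thinned at random to 1000 UMIs, and the genes of the list still detected were counted. The mean was 2.09 genes in 289 injured and 1.55 in 309 control cells. At least 3 of the genes were found in 33.9% (interval 28.5 to 39.7) of the injured and 15.2% (11.4 to 19.7) of the control cells. Marco and Mrc1 were found together in 44.3% of injured cells, against 43.8% from the product of their separate shares, and in 16.5% of control cells against 15.5%. At this depth 19.7% of injured and 0.971% of control cells had Msr1, 12.8% and 3.88% had Trem2, and 29.1% and 46.6% had Axl.

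Proliferating cells, marked by cell cycle genes such as Mki67 and Top2a, gave a similar set of receptor differences. The class held 74 injured and 31 control cells, of which 73 and 29 had alveolar macrophage markers as the largest share of their myeloid marker counts. Of 6 genes with enough counts, 4 were higher and 1 lower in the injured library, against 18.5% and 26.6% of 9682 genes. Msr1 had 386 counts (229 CPM) against 2 counts (2.76 CPM), a ratio of 82.7 (22.8 to 686). Marco was at 2303 against 475 CPM and Trem2 at 139.8 against 56.7 CPM. Mrc1 was at 947 against 500.3 CPM, a ratio of 1.89 (1.69 to 2.13), past the call here. Mertk was at 91.8 against 148 CPM, 1.61-fold lower (1.25 to 2.07), while Axl, at 328 against 420.2 CPM, was 1.28-fold lower (1.11 to 1.48) and past the call in neither direction. B cell markers summed to 1.19 and 189 CPM and T cell markers to 45.6 and 289 CPM in this class. C1q macrophage markers summed to 863 and 69.1 CPM, with 7 of 9 higher and 2 lower. Tmem119 and Cd72 had 0 counts in the injured cells, and the genes with 0 in the control cells included C1qa, C1qb and C1qc. Neutrophil markers summed to 1679.9 and 474 CPM, with 4 of 6 higher and 2 lower, Ly6g being at 0 in both libraries and Mmp9 and Acod1 at 0 in the control cells. The part of these markers in the receptor values was not tested.

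The C1q macrophage-like cells of the injured library had another receptor set. Compared with alveolar macrophage-like cells of the same library, Trem2, Folr2 and Cd163 were higher, and Marco, Mrc1 and Axl were lower. Of the 8 genes with enough counts, 3 were called higher and 3 lower, against 18.5% of 11375 genes called higher and 14.4% called lower. This comparison was added after the classes had been seen, and it lies within 1 library.

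Trem2 stood at 621 CPM (2239 counts) in C1q macrophage-like cells against 181 CPM, a ratio of 3.44 (3.20 to 3.70). Folr2 (ENSMUSG00000032725, chr7:101839988-101857194, minus strand) had 150 counts (41.6 CPM) against 3 counts (0.494 CPM), a ratio of 84.2 with a wide interval of 28.3 to 413. Cd163 (ENSMUSG00000008845, chr6:124304656-124330527, plus strand) had 54 counts (14.97 CPM) against 1 count, a ratio of 90.9 (15.6 to 3656). Both were found in few of the cells: Folr2 in 45 of 366 (12.3%) and Cd163 in 14 of 366 (3.83%). T cells of the injured library gave 1 Cd163 count and no Folr2 count.

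Marco was at 80.7 CPM in C1q macrophage-like cells, 28.0-fold lower (24.9 to 31.6) than in alveolar macrophage-like cells. Mrc1 was at 533 CPM, 2.17-fold lower (2.06 to 2.28), and Axl at 168 CPM, 2.19-fold lower (1.997 to 2.39). Msr1, at 246 CPM, was 1.24 times (1.14 to 1.36) the alveolar level and past the call in neither direction. Mertk, at 104 CPM, was 1.46-fold lower (1.29 to 1.65), just short of the call. With each cell weighted the same, Mrc1 fell short of the call and Mertk passed it.

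The C1q macrophage-like class was not uniform. Of its 366 injured cells, 125 had C1q macrophage markers and 211 had alveolar macrophage markers as the largest share of their myeloid marker counts, with median depths of 13390 and 2384 UMIs. Chil3, an alveolar macrophage marker, stood at 10939 CPM in the whole class and at 21509 CPM in injured alveolar macrophage-like cells. C1qa stood at 1776 and 51.6 CPM in the same order, and at 0.168 CPM in control alveolar macrophage-like cells. The 15 alveolar macrophage markers summed to 13307 CPM in the whole class, with Ear10 and Fabp1 at 0. Most of this sum was Chil3, so Chil3 weighs heavily in the split and the 211 cells are not shown to carry the marker set. The 125 cells had Trem2 at 751 CPM, Folr2 at 71.5 CPM, Cd163 at 25.3 CPM and Marco at 15.9 CPM. That Marco level is below the 23.9 CPM of injured B cells and is read as background. The 211 cells had Trem2 at 571 CPM, Folr2 at 15.4 CPM, Cd163 at 6.17 CPM and Marco at 199 CPM. Mrc1 (552 and 633 CPM), Axl (153 and 186 CPM) and Mertk (119 and 110.2 CPM) were closer together in these cells. Thus Folr2, Cd163 and Marco depended on which cells were counted, and Trem2 was above the alveolar macrophage-like level in both sets.

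Monocytes carried Msr1 and Trem2 but little Marco, Mrc1 or Mertk. In the 110 classical monocyte-like cells of the control library Msr1 was at 93.7 CPM and found in 55 cells. Trem2 was at 57.4 CPM (32.7% of the cells) and Axl at 54.0 CPM (38.2%). Marco (5.07 CPM), Mrc1 (10.1 CPM) and Mertk (1.69 CPM) were low. The Msr1 level of control monocytes was 11.4 times (8.08 to 16.3) that of control alveolar macrophage-like cells, so in the control library Msr1 counts came mainly from monocytes (62.4%). The injured library held 19 such cells, too few to compare, with Msr1 at 159 CPM, Trem2 at 77.1 CPM and Axl at 4.82 CPM from 1 count. Nonclassical monocyte-like cells of the control library had Msr1 at 29.9 and Trem2 at 25.9 CPM.

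In cDC2-like cells Cd209a was the leading gene of the list and was lower in the injured library. Cd209a (ENSMUSG00000031494, chr8:3743397-3748984, minus strand) had 109 counts in 90 injured and 210 in 62 control cells, or 117 and 443 CPM. It was 3.78-fold lower (2.99 to 4.81) and found in 18 against 25 cells. Mrc1 was at 46.3 against 120.3 CPM, 2.60-fold lower (1.72 to 3.96). Axl was at 86.1 and 78.1 CPM, a ratio of 1.10 (0.737 to 1.67). Of 3 genes with enough counts, 0 were higher and 2 lower, against 26.7% of 8492 genes called higher and 14.8% called lower.

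The class name describes a minority of its cells. Markers of type 1 conventional dendritic cells (cDC1) took the largest share of myeloid marker counts in 43 of the 90 injured and 20 of the 62 control cells, and cDC2 markers in 31 and 20. The 10 cDC1 markers summed to 2898 CPM (injured) and 1974 CPM (control), with 6 higher, 0 lower and none at 0. The 10 cDC2 markers summed to 2562 and 3084 CPM, with 3 higher, 4 lower and none at 0. Without the cells that had a Xcr1 or Clec9a UMI (a choice made after seeing the data), Cd209a was at 193 CPM in 62 injured and 546 CPM in 49 control cells, and Mrc1 at 77.6 and 171 CPM. Without doublet removal Mrc1 turned to a log2 ratio of 0.79, higher in the injured library, in a class of 132 and 39 cells. Cd209a also appeared in 7 of 110 control classical monocyte-like cells (74 counts, 62.5 CPM) and in plasmacytoid dendritic cell-like cells (8 counts in 11 injured and 11 counts in 9 control cells).

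Neutrophil-like cells had few counts of any of these genes. Marco had 37 counts in 586 injured and 3 in 125 control cells, at 30.4 and 8.79 CPM. It was found in 5.63% of the injured cells at a median depth of 2068 UMIs. Injured B cells had the larger share, 11.9% at 3388 UMIs, and the lower level, 23.9 CPM, so no order is read between them. Trem2 had 27 and 2 counts, Mrc1 21 and 5, and Axl 8 and 4. The ratio interval included 1 for Trem2 (0.950 to 32.8), Mrc1 (0.432 to 3.99) and Axl (0.150 to 2.54). For Marco it was 1.09 to 17.5. Of these 4 genes 2 were called higher and 1 lower, but 54.6% of 7768 genes were called higher and 10.1% lower in this class, whose median log2 ratio over all genes was 0.62. Different clusters held most of the class: cluster 0 had 425 injured and 4 control cells, and cluster 7 had 161 and 121. Within cluster 7 Marco was at 31.1 against 9.44 CPM, from 12 and 3 counts. Trem2 was there at 12.96 against 6.29 CPM, from 5 and 2 counts, under the 10 needed for a call. For both genes the intervals of the 2 libraries overlapped. The 15 alveolar macrophage markers summed to 2387 and 387 CPM in these cells, with 6 of 10 higher and 2 lower. Ear1 and Ear10 were at 0 in both libraries, and Fabp1 and Cidec were at 0 in the injured cells as well. Their part in these values was not tested.

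Mature dendritic cell-like cells of the injured library (98 cells) had Axl at 27.9 CPM and no counts of Msr1, Cd163, Mertk, Folr2 or Cd209a. For each of these 5 genes a count of 0 allows a level of up to 4.12 CPM by the exact interval.

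A few receptor genes were also found outside the immune classes. Trem2 was at 215 CPM in 20 mesothelial-like cells of the injured library (162 counts, 18 of 20 cells) and at 43.2 CPM in 8 control cells (4 counts). Their median depths were 33433.5 and 12070 UMIs. Axl was at 173 and 184 CPM in the same cells. The alveolar macrophage markers of those 20 cells summed to 538 CPM and the C1q macrophage markers to 220.3 CPM. Those C1q markers summed to 6921 CPM in the C1q macrophage-like cells, whose Trem2 level was 621 CPM. The part of macrophage RNA in the mesothelial-like values was not tested. In fibroblast-like cells Axl was at 389 CPM in 36 injured and 91.0 CPM in 73 control cells, a ratio of 4.27 (2.67 to 7.01), opposite in direction to alveolar macrophage-like cells. In blood endothelial-like cells Mertk was at 28.6 CPM in 93 injured and 61.0 CPM in 395 control cells, from 9 and 65 counts. Different clusters made up this class: cluster 13 held 0 injured and 114 control cells and gave 46 of the 65 control counts, and cluster 23 held 26 injured and 0 control cells. In the shared cluster 3 (67 and 281 cells) Mertk was at 36.4 against 45.04 CPM, from 6 and 19 counts.

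Over the whole library, 5 of the 9 genes were higher in the injured library and 2 were lower, against 21.8% of 15768 genes called higher and 17.2% called lower. Folr2 stood at 7.96 against 0.250 CPM (158 and 4 counts), a ratio of 31.9 (12.2 to 118). Msr1 stood at 128 against 11.1 CPM, a ratio of 11.5 (9.89 to 13.5). Trem2 stood at 193 against 37.3 CPM (ratio 5.16), Marco at 912 against 217 CPM (ratio 4.20) and Cd163 at 2.92 against 0.749 CPM (ratio 3.90). Cd209a was 3.05-fold lower (2.47 to 3.80) and Axl 1.51-fold lower (1.44 to 1.58), at the edge of the call. Mrc1, at a ratio of 1.49, and Mertk, 1.45-fold lower, were just short of it. These 3 calls turned on the processing. Axl fell short of the call without doublet removal and with each cell weighted the same, Mrc1 passed it with each cell weighted the same, and Mertk passed it at a 10% mitochondrial limit and with median-ratio size factors. In such sums more cells of a class and more RNA per cell cannot be told apart: C1q macrophage-like cells were 15.9% of the injured and 0.131% of the control cells.

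Other genes of uptake and clearance were grouped into 6 lists that held none of the 9 genes. These lists too were chosen with earlier results of these data known. Their counts are read against the shares of all genes called, in alveolar macrophage-like cells 13.6% higher and 22.7% lower, and a count near those shares is no result about a list. In alveolar macrophage-like cells 7 of 11 measured C-type lectin receptors were higher and 4 lower, among them Clec4d at 50.6 against 13.9 CPM and Clec12a at 102 against 31.0 CPM, while Clec4a3 was at 118 against 203 CPM and Ly75 at 129 against 207 CPM. The list's median log2 ratio of levels with 10 CPM added was 0.70, beside -0.07 over all genes. Of 11 other scavenger receptors 3 were higher and 2 lower. Cd36, a fatty acid and lipoprotein receptor, was 5.48-fold lower at 42.8 against 235 CPM. Cxcl16, which encodes a scavenger receptor that is also a chemokine, was at 59.96 against 6.54 CPM, and Colec12 at 118 against 32.2 CPM.

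Genes that recognise and engulf dying cells were higher or past the call in neither direction, 4 of 12 and 8 of 12. Mfge8, which bridges phosphatidylserine to integrins, was at 98.01 against 14.3 CPM, a ratio of 6.87 (5.47 to 8.73). Itgav, a subunit of its integrin receptor, was at 66.2 against 25.7 CPM. Of 11 ligand, shedding and haem handling genes 6 were higher and 0 lower, led by Hmox1 (haem oxygenase), at 837 against 85.9 CPM, and Apoe, a ligand of lipoprotein receptors, at 153 against 40.8 CPM. Of 11 Fc and complement receptor genes 3 were higher and 1 lower: C3ar1 was at 28.0 against 0.839 CPM, Fcgr2b at 315 against 158 CPM and Itgax at 202 against 372 CPM. Of 10 genes of the TREM family and its adaptors 2 were higher and 1 lower, with Inpp5d at 163 against 101 CPM and Treml4 at 2.31 against 12.7 CPM. The lower calls of Mertk and Axl thus stood beside 0 lower calls in the engulfment list.

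**Figure D4:**
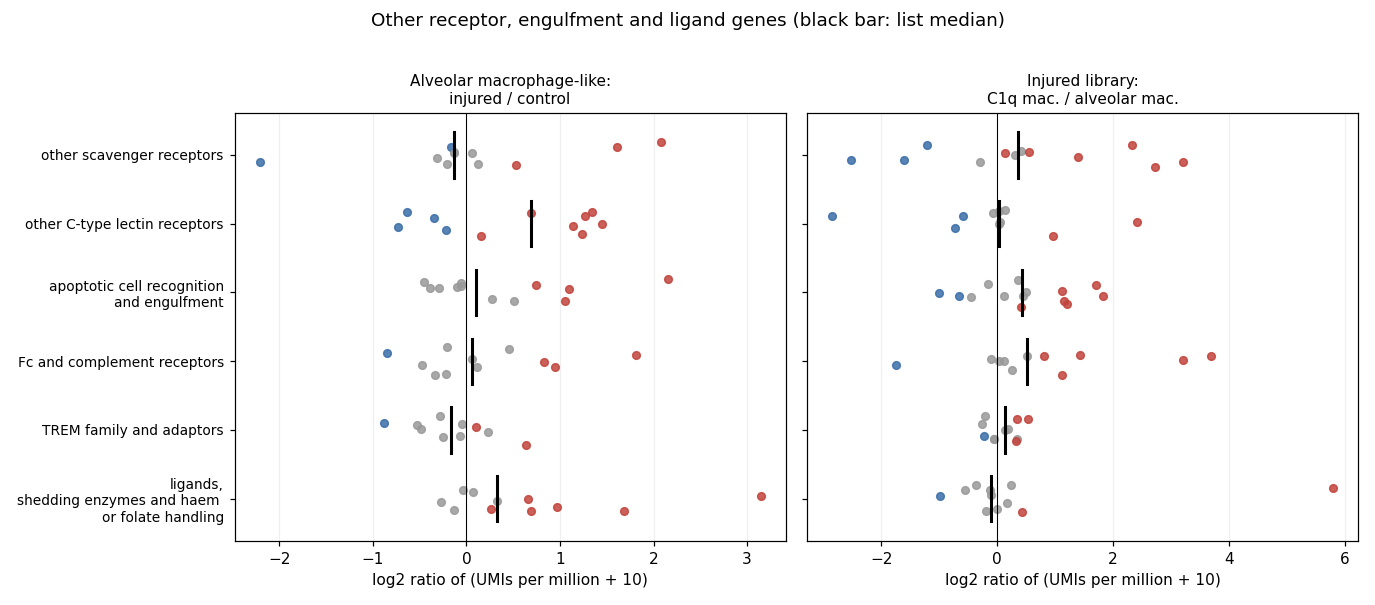
Log2 ratios (x axis, 10 CPM added to both sides) of the genes of 6 lists (y axis) for injured over control alveolar macrophage-like cells and for C1q over alveolar macrophage-like cells of the injured library; each point is a gene with at least 10 counts, red if called higher, blue if called lower and grey if neither, spread vertically only to separate points, and black bars are list medians. Cd36 is the leftmost point of the other scavenger receptors in the first panel and Apoe the rightmost point of the second panel.

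C1q macrophage-like cells also differed from alveolar macrophage-like cells of the injured library at single genes of these lists, where 18.5% of all genes were called higher and 14.4% lower. Apoe was at 9086 against 153 CPM, a ratio of 59.2. Stab1, a scavenger receptor found on tissue macrophages, was at 128 against 4.94 CPM, Abca1, which exports cholesterol, at 306 against 79.6 CPM, and Cxcl16 at 450.1 against 59.96 CPM. The complement receptor genes Itgam (272 against 11.9 CPM) and C3ar1 (339 against 28.0 CPM) were also higher. Ly75 (9.43 against 129 CPM), Colec12 (12.48 against 118 CPM), Olr1 (82.6 against 272 CPM) and the protein S gene Pros1 (54.9 against 120 CPM), which encodes a ligand of Mertk, were lower. Of 12 other scavenger receptors 6 were higher and 3 lower, and of 14 engulfment genes 6 were higher and 2 lower.

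Over the whole library 11 of 17 engulfment genes were higher and 0 lower, with a median log2 ratio of 0.52 beside 0.02 over all genes, of which 21.8% were called higher and 17.2% lower. Of 12 ligand, shedding and haem handling genes 8 were higher and 0 lower. Of 15 other scavenger receptors 6 were higher and 3 lower, of 13 other C-type lectin receptors 6 and 5, of 11 Fc and complement receptors 4 and 0, and of 11 TREM family and adaptor genes 1 and 1. C3ar1 stood at 74.3 against 1.19 CPM, Hmox1 at 433 against 58.0 CPM and Treml4 at 2.82 against 25.5 CPM.

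The genes whose levels were most like those of each receptor were found by Pearson correlation of log2(CPM + 10) over the 25 class and library profiles with at least 30 cells, among 11082 genes. These profiles share libraries and stray RNA, so the coefficients are descriptions. Msr1 was most like Slc22a4 (r = 0.96), Slc7a8 and Trem2, both at 0.90. Trem2 was most like Slc7a8 (0.93), Creg2 and Rnf128 (both 0.90). Marco was most like Asb4 (0.97), Vstm2a and Trim29 (both 0.94), and Mrc1 like Prune2 (0.96), Lrp12 (0.95) and Fcor (0.94). Mertk was most like Lpl (0.92), which encodes lipoprotein lipase, Myo7a and Kazald1 (both 0.90), and Axl like Rxra (0.89), Ocrl (0.87) and Nln (0.86). Folr2 was most like Ccl12 (0.94), Fcna and Rnase2a (both 0.89), and Cd209a like Clec10a (0.97), Cd209d (0.95) and Lmo1 (0.94). Folr2 was at 41.6 CPM in 1 profile and at most 2.15 CPM in any other, so its coefficients rest on that profile. Lpl, Ccl12 and Clec10a were also on the marker lists that named the classes. Cd163 had too few counts for this comparison.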

How the data were processed

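The authors deposited 1 matrix of raw UMI counts per library, genes by cell barcodes, from Cell Ranger (version 4.0.0 in the headers), not normalized. Tools named in the submitters' processing notes, with no role stated, are STAR 2.7.2c, featureCounts 1.6.3, DESeq2 1.26.0 and 1.28.1 and the builds GRCm38 and mm10. Barcodes needed at least 500 UMIs, 200 genes and at most 15% mitochondrial counts. Doublets were scored per library and the top 0.8% per 1000 cells removed (44 and 44). Cells were clustered on 2000 variable genes and 30 principal components (20 neighbours, Leiden resolution 1; Python 3.11.15, scikit-learn 1.9.0, leidenalg 0.10.2), and clusters were called "like" a type from marker lists. Counts were summed per class and library. Classes were compared with at least 30 cells in both libraries. Intervals are 95% exact. Ratios and intervals were tested on simulated counts. Of 32285 genes, 32158 were in GENCODE M21. All receptor genes were named. Of each list, up to 2 highest and 2 lowest called genes with at least 50 counts were named, and a few others (Tyrobp, Chil3, C1qa) after their values were seen. Receptor genes and lists were chosen with earlier results of these data known. Promoter sequences are from RefSeq.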

Additional observations from a re-analysis of the deposited data

Results flagged for a closer look

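For 2 of the genes, classes differed in direction between injured and control, which was not tested. The log2 ratio of Axl was 2.10 in fibroblast-like cells, higher in the injured library, and -0.85 in alveolar macrophage-like cells, lower there. The fibroblast value rests on 59 and 27 counts in 12 and 7 cells with a UMI. The log2 ratio of Mrc1 was 0.92 in proliferating cells and -1.38 in cDC2-like cells.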

How the results depend on the processing

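No paired analysis was possible because each group had 1 library. In alveolar macrophage-like cells the calls of Msr1, Marco, Mrc1, Trem2, Mertk and Axl stayed on their side of 1.5-fold under all 9 alternatives that recomputed a ratio, with Msr1 between 4.53 and 4.73 (log2) and Axl between -0.92 and -0.71. At resolution 0.5 this class held 1 injured cell and could not be compared, and a call at 2-fold left 0 genes lower there. Over the whole library Axl was at -0.58 without doublet removal and -0.54 with each cell weighted the same, short of the call, while Mrc1 (0.89, each cell weighted the same) and Mertk (-0.63 at a 10% mitochondrial limit, -0.60 with median-ratio size factors) passed it. Whole-library genes called lower numbered 1 without doublet removal, with each cell weighted the same and at 2-fold. In neutrophil-like cells 0 were lower with each library clustered alone and at 2-fold, and 2 with no minimum of counts. The cDC2-like class was the least stable. It could not be formed in both libraries at a 10% mitochondrial limit, at resolutions 0.5 and 2 or with libraries clustered alone. Its genes called higher numbered 1 at a 25% limit, 5 without doublet removal, 6 with the receptor genes in the clustering and 5 with no minimum of counts, and those called lower 1 without doublet removal and 1 with the receptor genes in the clustering. In those settings the log2 ratio of Mrc1 reversed, to 0.79 without doublet removal and 0.86 with the receptor genes in the clustering, where the class held 132 and 39 or 125 and 40 cells. The cause was not tested. Thinning to 500 or 2000 UMIs kept the mean number of receptor genes per cell higher in injured (1.33 and 2.86) than in control (1.01 and 2.38) alveolar macrophage-like cells. In C1q macrophage-like cells the Marco log2 ratio to alveolar macrophage-like cells ran from -7.96 (libraries clustered alone) to -3.10 (each cell weighted the same). Mrc1 was at -0.51 in the latter setting, short of the call. Mertk, short of the call in the main setting, was past it at -0.78 with each cell weighted the same. It was at -0.08 with libraries clustered alone. Of 364 single values under alternatives 245 stayed within their counting interval (list medians, within 0.1), 117 moved and 2 reversed. Depth limits Cd163, Folr2 and Cd209a, which have under 500 counts in each library.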
